A study of Danio rerio with 170 samples.

Results

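The 10 genes described here encode chaperones and folding enzymes of the endoplasmic reticulum (ER) in zebrafish. They were chosen by symbol, HSPA5, hyou1, dnajb11, sdf2l1, hsp90b1, PDIA4, pdia6, pdia3, calr3b and canx, out of 27904 genes in the filtered count table, and each symbol named a single gene there. The choice used no measured value of these data directly, although earlier results of the data were known when it was made. Symbols in capitals are the gene table's names of the human counterparts.

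Embryos of the Tropical 5D wild-type line were exposed from 6 hours post fertilization (hpf) to 1 of 15 per- and polyfluoroalkyl substances (PFAS), and RNA was sequenced from pools of 10 whole embryos at 48 hpf by 3′ tag sequencing, with 4 libraries per substance. In Round 1, PFAS 1, 3 and 5 to 13 were set against 6 Control-A pools from 6 collection days, and in Round 2, PFAS 2, 4, 14 and 15 were set against 4 Control-B pools of a single day. All exposures and both control groups carried 1% DMSO. A second experiment followed Nafion byproduct 2 (NB2), which is the substance of PFAS 2, at 73 µM against vehicle (Control-C) in pools of 8 animals at 48, 72 and 96 hpf.

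The substances and nominal concentrations were as follows. PFAS 1 was 9-chloro-perfluorononanoic acid at 100 µM, PFAS 2 was Nafion byproduct 2, a branched ether sulfonic acid, at 30 µM, PFAS 3 was potassium perfluorooctanesulfonate at 13.8 µM, and PFAS 4 was perfluoro-3,6,9-trioxatridecanoic acid at 50 µM. PFAS 5 was perfluoroheptanesulfonic acid at 100 µM, PFAS 6 was N-ethylperfluorooctanesulfonamide at 100 µM, PFAS 7 was 1-(perfluorofluorooctyl)propane-2,3-diol at 39.7 µM, and PFAS 8 was 1H,1H,11H,11H-perfluorotetraethylene glycol at 53 µM. PFAS 9 was 2,2,3,3-tetrafluoropropyl acrylate at 62 µM, PFAS 10 was perfluorooctanesulfonamide at 8 µM, PFAS 11 was perfluorohexanesulfonamide at 28 µM, and PFAS 12 was 3H-perfluoro-2,2,4,4-tetrahydroxypentane at 100 µM. PFAS 13 was a decanediol fluorinated between its alcohol ends at 25 µM, and PFAS 14 and PFAS 15, both at 20 µM, were the diacrylates of a pentanediol and a hexanediol fluorinated in the same way. The concentrations were those the study chose for a high incidence of malformations at a later stage, or 100 µM, except that PFAS 14 and PFAS 15 were given below the concentrations that cause malformations, so most of them differ between substances and are not equal doses.

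Proteins that enter the secretory pathway fold inside the ER, where chaperones hold unfolded chains, disulfide isomerases join cysteines, and lectin chaperones retain glycoproteins until they are folded. When unfolded protein accumulates, the sensors IRE1, ATF6 and PERK start the unfolded protein response, and many of the chaperone genes are among its best known targets. PERK also acts on translation through eIF2α and ATF4, a branch shared with other stresses and known as the integrated stress response.

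The 70 libraries at 48 hpf held 14265378 to 30363275 reads counted to genes, with a median of 23474909. PFAS 5 replicate 1, which the study set aside, was left out, and 69 libraries in 17 groups were fitted together. Levels are given as CPM, the counts of a gene scaled to a common library size with allowance for library composition. Since a 3′ tag library yields about 1 read per transcript, they were not divided by gene length. Each fold change is a log2 ratio of an exposed group to the controls of its own round with its standard error, from edgeR's quasi-likelihood test, and a gene was called at an adjusted p under 0.05 over all 21928 genes tested. Every member passed the filter on low counts. The pools are separate samples, so p-values measure the spread between pools. In whole embryos, fewer cells of a type and less RNA per cell cannot be told apart.

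ER chaperone transcripts moved in opposite directions under different PFAS. PFAS 7 raised 4 of 10 members, among them the central ER chaperone HSPA5, where 0.762% of all genes were called higher, and lowered none. PFAS 10 and PFAS 11, the perfluoroalkyl sulfonamides, lowered 8 of 10 each, where 6.83% and 7.52% of all genes were called lower. PFAS 13 lowered 5 of 10 (8.52% of all genes). PFAS 12 lowered 2 of 10 (7.47% of all genes), a count that dropped to 0 or 1 in 8 of 10 fits with a library left out. No member was called under the other 10 substances. The Round 1 comparisons share the Control-A libraries and are therefore not independent of one another.

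**Figure D1:**
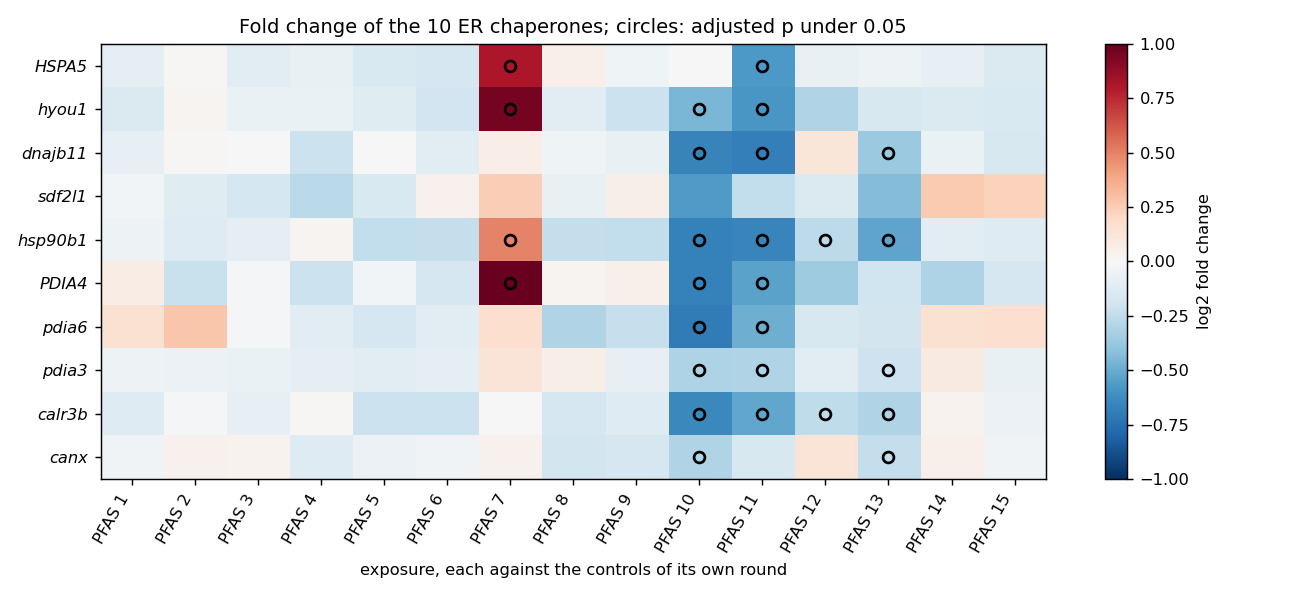
Log2 fold change (colour scale from -1 to 1) of the 10 members (rows) under PFAS 1 to 15 (columns), each against the controls of its own round. Circles mark adjusted p under 0.05: 4 red cells for PFAS 7, and 8, 8, 2 and 5 blue cells for PFAS 10, 11, 12 and 13.

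In PFAS 7 embryos the 4 called members were HSPA5, hyou1, hsp90b1 and PDIA4, against a background of 0.762% of all genes called higher in that comparison. HSPA5 encodes BiP, the ER form of Hsp70, which binds unfolded chains and keeps the stress sensors inactive. It stood at 415, 473, 495 and 311 CPM in the PFAS 7 libraries, against 222, 246 and 258 CPM (lowest, median and highest) in the Control-A libraries. The groups did not overlap, and the fold change was 0.81 ± 0.11 (adjusted p = 7.52e-07).

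hyou1 encodes an ER Hsp110 protein that exchanges the nucleotide of BiP. Its level was 66.04, 96.2, 80.4 and 57.2 CPM in PFAS 7 libraries, against 34.7, 39.3 and 41.4 CPM in Control-A. The fold change of hyou1 was 0.96 ± 0.11 (adjusted p = 7.28e-09). PDIA4, a disulfide isomerase with several thioredoxin domains, had 32.7, 39.2, 32.1 and 22.9 CPM in PFAS 7 libraries, against 15.4, 15.8 and 17.4 CPM in Control-A, and its fold change was 0.99 ± 0.13 (adjusted p = 1.87e-07). Both genes lay above every control library, with the lowest exposed value in replicate 4.

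hsp90b1, the ER form of Hsp90 known as GRP94, folds a restricted set of clients that includes integrins and Toll-like receptors. It had 243, 307, 297 and 203 CPM in PFAS 7 libraries, against 169, 192 and 196 CPM in Control-A, a fold change of 0.49 ± 0.09 (adjusted p = 4.15e-04). These 4 calls held under every other setting and with any 1 library of the comparison left out. The glycoprotein disulfide isomerase pdia3 also lay above all controls, at 205 to 221 CPM in PFAS 7 against 172 to 204 CPM in Control-A, but its fold change of 0.13 ± 0.07 did not pass (adjusted p = 0.619). In all, 5 of 10 members lay above every control, where 1.65% of all genes did.

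The other members of the PFAS 7 comparison did not pass the test. The lectin chaperones calr3b and canx, which hold glycoproteins through their trimmed sugars, had fold changes of 0.00 ± 0.08 and 0.04 ± 0.07. dnajb11, an Hsp40 protein that delivers unfolded chains to BiP, stood at 38.2, 49.3, 44.2 and 40.2 CPM in PFAS 7 libraries, against 35.6 to 44.2 CPM in Control-A (fold change 0.07 ± 0.10). The disulfide isomerase pdia6 gave 0.17 ± 0.12 and sdf2l1, a partner of dnajb11, 0.25 ± 0.21. The median fold change of the 10 members was 0.21, and that of all genes was -0.01.

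**Figure D2:**
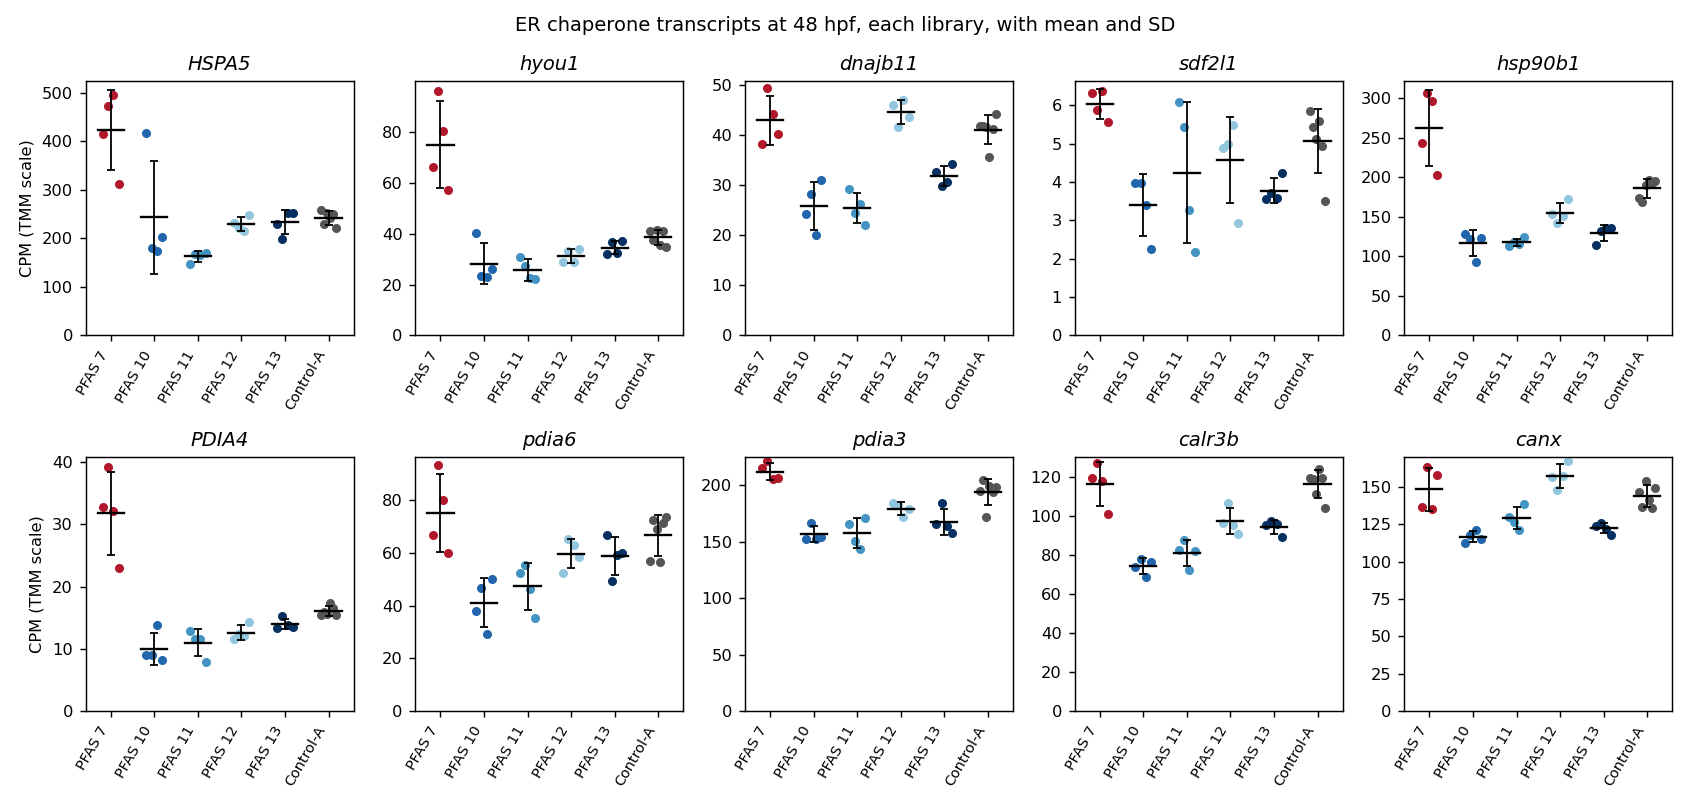
CPM of each member in every library of PFAS 7, 10, 11, 12, 13 and Control-A; points are libraries, lines are means and bars are SD. PFAS 7 lies above the controls for HSPA5, hyou1, PDIA4 and hsp90b1, PFAS 10 and 11 lie below them for most members, and PFAS 10 replicate 1 stands apart at 417 CPM of HSPA5.

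Some other ER genes were also called higher with PFAS 7, where 0.762% of all genes were called higher and 0.182% lower. Of 39 further ER folding genes, 2 rose and 0 fell. SIL1, a second nucleotide exchange factor of BiP, had 16.3, 22.4, 23.9 and 13.6 CPM in PFAS 7 libraries, against 6.12 to 9.75 CPM in Control-A (fold change 1.36 ± 0.18, adjusted p = 1.13e-07), and the BiP co-chaperone dnajc3a rose by 1.00 ± 0.21 (adjusted p = 0.00182). Of 24 genes of ER-associated degradation, which returns misfolded proteins to the cytosol for destruction, 2 rose and 0 fell.

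Those 2 were HERPUD1 and DERL3, both known targets of the unfolded protein response in mammals. DERL3, a channel component, had 3.16, 6.40, 3.92 and 1.82 CPM in PFAS 7 libraries, against 0.0444 to 0.536 CPM in Control-A, with a fold change of 3.88 ± 0.67 (adjusted p = 7.84e-05). HERPUD1, a scaffold of the degradation complex, had 11.3, 11.6, 13.7 and 4.81 CPM in PFAS 7 libraries, against 4.03 to 4.94 CPM in Control-A, with a fold change of 1.21 ± 0.26 (adjusted p = 0.00261). DERL3 lay above every control library, while PFAS 7 replicate 4 fell within the control range for HERPUD1.

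Among 15 sensors and factors of the unfolded protein response, DDIT3 alone was called with PFAS 7, at 0.98 ± 0.19 (adjusted p = 5.13e-04). DDIT3 encodes CHOP, a transcription factor induced late in ER stress and in the integrated stress response. Of 24 integrated stress response genes 3 rose, and of 25 cytosolic heat shock genes 6 rose and 1 fell, beside 0.762% and 0.182% of all genes. The stress factor ATF3 gained 2.03 ± 0.25 (adjusted p = 1.69e-08) and the inducible cytosolic chaperone hsp70.3 gained 3.17 ± 0.35 (adjusted p = 1.55e-09). Of 33 translocon and glycosylation genes 1 rose and 0 fell, and of 28 genes of transport between ER and Golgi 1 rose and 1 fell.

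In PFAS 7 embryos 0.762% of all genes were called higher and 0.182% lower. Among markers of other cell types, 1 of 8 hatching gland markers rose, and 1 of 14 liver markers rose and 3 fell. Of 10 bone and dermal fibroblast markers 0 passed. The summed level of those bone and fibroblast markers was 2889 to 3078 CPM in PFAS 7 libraries, against 3203 to 3358 CPM in Control-A. Exocrine pancreas markers, of a tissue rich in ER, had a summed level of 7.43 to 9.01 CPM in PFAS 7 libraries and 5.11 to 8.42 CPM in Control-A. The part of these markers in the result was not tested.

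PFAS 10 gave the reverse picture for most members. It lowered 8 of 10, hsp90b1, pdia6, hyou1, dnajb11, PDIA4, canx, pdia3 and calr3b, where 6.83% of all genes were called lower. The largest of these fold changes was that of pdia6, with 38.2, 46.6, 29.4 and 50.3 CPM in PFAS 10 libraries, against 56.8, 70.34 and 73.5 CPM in Control-A (-0.70 ± 0.13, adjusted p = 2.44e-05). The most certain was that of the calreticulin gene calr3b, with 74.1, 77.9, 68.8 and 76.5 CPM, against 104, 119 and 124 CPM in Control-A (-0.65 ± 0.08, adjusted p = 4.77e-09). Neither gene overlapped with the controls.

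hsp90b1 had 129, 122, 92.3 and 123 CPM in PFAS 10 libraries, against 169, 192 and 196 CPM in Control-A (-0.68 ± 0.10, adjusted p = 1.17e-07). dnajb11 had 24.3, 28.3, 20.0 and 30.98 CPM in PFAS 10 libraries, against 35.6, 41.7 and 44.2 CPM in Control-A (-0.67 ± 0.10, adjusted p = 3.36e-07). PDIA4 was at 9.00, 8.99, 13.8 and 8.17 CPM in PFAS 10 libraries, against 15.4 to 17.4 CPM in Control-A (-0.68 ± 0.14, adjusted p = 1.93e-04). Each of these lay wholly below the controls, as did pdia3 (-0.31 ± 0.07) and canx (-0.30 ± 0.07), whose fold changes were smaller. Together 7 of 10 members lay below every control library, where 4.91% of all genes did.

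HSPA5 was the exception under PFAS 10. It had 417, 181, 174 and 202 CPM in PFAS 10 libraries, against 222, 246 and 258 CPM in Control-A, so that 1 pool stood above and the other 3 below all controls (fold change 0.01 ± 0.12, adjusted p = 0.981). Without replicate 1 the fold change of HSPA5 was -0.38 and passed (adjusted p = 0.00204). The same pool was the highest of its group for hyou1, at 40.2 CPM against 22.9 to 26.2 CPM in the other 3, and without replicate 3, the lowest, hyou1 no longer passed (-0.36, adjusted p = 0.053).

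Replicate 1 of PFAS 10 was also the highest pool for several stress genes. The cytosolic hsp70.3 had 238 CPM there and 79.1, 22.4 and 33.2 CPM in the other PFAS 10 libraries, against 0.941 to 3.29 CPM in Control-A. The CHOP gene DDIT3 had 99.6 CPM there and 36.996, 47.9 and 48.2 CPM in the other 3, against 5.86 to 14.3 CPM in Control-A. XBP1, the factor whose message IRE1 splices, had 684 CPM in that pool and 477 to 525 CPM in the other 3, against 341 to 390 CPM in Control-A.

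sdf2l1, the least abundant member, had 3.96, 3.97, 3.41 and 2.26 CPM in PFAS 10 libraries, against 3.50, 5.27 and 5.85 CPM in Control-A. Its fold change of -0.57 ± 0.22 did not pass (adjusted p = 0.0641). It passed in a fit with replicate number as a block (-0.70, adjusted p = 0.0356), with collection day as a block (-0.63, adjusted p = 0.0487), with DESeq2 (adjusted p = 0.0417) and without Control-A replicate 6 (adjusted p = 0.0344).

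The lower chaperone levels under PFAS 10 stood beside higher levels of the stress factors. Of 39 other ER folding genes 15 fell and 2 rose, where 6.83% of all genes were called lower and 7.26% higher. calr3a, the paralog of calr3b, fell to 206 CPM on average in PFAS 10 libraries, against 301 CPM in Control-A (-0.55 ± 0.07, adjusted p = 1.80e-08), and UGGT1, which marks misfolded glycoproteins for another round with the lectin chaperones, fell by 0.70 on the log2 scale (adjusted p = 8.00e-08). P4HA2, a subunit of collagen prolyl hydroxylase, rose by 1.22 (adjusted p = 6.19e-10).

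Of 33 translocon and glycosylation genes, 9 fell and 1 rose with PFAS 10, and DDOST, a subunit of the oligosaccharyltransferase, changed by -0.61 ± 0.08 (adjusted p = 5.60e-09). Of 28 genes of transport between ER and Golgi, 7 fell and 0 rose. Of 24 degradation genes, 4 fell and 2 rose, with VCP, the ATPase that extracts proteins from the ER membrane, at -0.62 ± 0.08 (adjusted p = 3.56e-09).

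By contrast, 7 of 15 sensors and factors of the unfolded protein response rose with PFAS 10 and none of these 15 fell. Of all genes, 7.26% were called higher. DDIT3 changed by 2.54 ± 0.19 (adjusted p = 5.22e-18), atf4a by 1.05 ± 0.09 (adjusted p = 2.10e-14), and ppp1r15a, which restores translation by dephosphorylating eIF2α, by 2.31 ± 0.22 (adjusted p = 2.73e-13). Of 24 integrated stress response genes 16 rose and 0 fell, and of 25 cytosolic heat shock genes 12 rose and 1 fell. DDIT3, atf4a and ppp1r15a belong to the branch through eIF2α and ATF4 that is shared with other stresses. The lists of the unfolded protein response and the integrated stress response are therefore not independent of each other. XBP1 is counted both in the unfolded protein response list and among the hatching gland markers below.

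PFAS 11 also lowered 8 of 10 members, where 7.52% of all genes were called lower. These were HSPA5, hsp90b1, pdia6, hyou1, dnajb11, PDIA4, pdia3 and calr3b, and all 8 lay below every control library, as 6.04% of all genes did. HSPA5 had 147, 167, 166 and 171 CPM in PFAS 11 libraries, against 222, 246 and 258 CPM in Control-A (-0.57 ± 0.12, adjusted p = 1.51e-04). No pool stood apart here, unlike with PFAS 10.

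dnajb11 had 29.2, 24.4, 26.3 and 22.1 CPM in PFAS 11 libraries, against 35.6, 41.7 and 44.2 CPM in Control-A (-0.68 ± 0.10, adjusted p = 1.38e-07). hsp90b1 had 113, 118, 116 and 124 CPM in PFAS 11 libraries, against 169, 192 and 196 CPM in Control-A (-0.66 ± 0.10, adjusted p = 1.54e-07). hyou1 had 30.995, 27.4, 22.6 and 22.1 CPM in PFAS 11 libraries, against 34.7, 39.3 and 41.4 CPM in Control-A (-0.58 ± 0.12, adjusted p = 1.52e-04). BiP, its exchange factor and its Hsp40 partner were thus all lower, together with GRP94.

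The disulfide isomerases were called lower with PFAS 11 as well, pdia6 by -0.49 ± 0.13 (adjusted p = 0.00329), PDIA4 by -0.54 ± 0.14 (adjusted p = 0.00341) and pdia3 by -0.30 ± 0.07 (adjusted p = 5.37e-04). Without replicate 4 the adjusted p-values of pdia6 and PDIA4 were 0.0565 and 0.0542, and on the flow cell labelled run66 alone that of PDIA4 was 0.115. calr3b stood at 82.5, 88.0, 72.2 and 82.1 CPM in PFAS 11 libraries, against 104 to 124 CPM in Control-A (-0.52 ± 0.08, adjusted p = 9.41e-07). Only canx (-0.16 ± 0.07, adjusted p = 0.135) and sdf2l1 (-0.25 ± 0.21, adjusted p = 0.537) did not pass.

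Other ER folding genes were called lower for 9 of 39 and higher for 1 of 39 with PFAS 11. Of all genes, 7.52% were called lower and 6.58% higher. The other ER folding genes called lower are given next. Among them were pdia8 (-0.81 ± 0.17, adjusted p = 1.46e-04) and a second calreticulin gene, CALR (-0.58 ± 0.12, adjusted p = 2.01e-04). Degradation genes fell for 5 of 24, translocon and glycosylation genes for 4 of 33, and genes of ER to Golgi transport for 2 of 28. In the translocon and glycosylation list MAGT1 was called higher (0.43 ± 0.12, adjusted p = 0.00594). The share of the transport genes was near that of all genes. Sensors and factors rose for 6 of 15 and fell for 1, with atf4a at 0.51 ± 0.09 (adjusted p = 2.39e-05) and DDIT3 at 1.00 ± 0.19 (adjusted p = 3.19e-05). Integrated stress response genes rose for 13 of 24 and fell for 1, while heat shock genes rose for 3 of 25 and fell for 2.

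The sulfonamides PFAS 10 and PFAS 11 differ in chain length and were given at 8 and 28 µM, so their values stand side by side without a test of the difference. The median fold change of the members was -0.61 with PFAS 10 and -0.53 with PFAS 11, and that of all genes was -0.02 and -0.01. A sulfonamide with an ethyl group on the nitrogen, PFAS 6 at 100 µM, gave no call among the members, as described below.

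PFAS 13, a fluorinated diol, lowered 5 of 10 members, where 8.52% of all genes were called lower. hsp90b1 had 115, 132, 136 and 135 CPM in PFAS 13 libraries, against 169, 192 and 196 CPM in Control-A (-0.52 ± 0.10, adjusted p = 2.11e-05). dnajb11 had 32.6, 29.8, 30.6 and 34.3 CPM in PFAS 13 libraries, against 35.6, 41.7 and 44.2 CPM in Control-A (-0.37 ± 0.10, adjusted p = 0.00414). The lectin chaperones calr3b (-0.30 ± 0.08, adjusted p = 0.00501) and canx (-0.23 ± 0.07, adjusted p = 0.0126) and the isomerase pdia3 (-0.21 ± 0.07, adjusted p = 0.0195) were the other 3.

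HSPA5 was not among them, with 229, 199, 252 and 252 CPM in PFAS 13 libraries, against 222 to 258 CPM in Control-A (-0.05 ± 0.12, adjusted p = 0.851). Of the members, 5 lay below every control (hsp90b1, dnajb11, PDIA4, canx and calr3b), where 6.67% of all genes did. The smaller calls were less firm: canx and pdia3 did not pass without PFAS 13 replicate 4 (adjusted p = 0.0519 and 0.0968), and pdia3 did not pass without replicate 1 or replicate 3 either.

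With PFAS 13, 2 of 39 other ER folding genes fell and 3 rose, shares near those of all genes (8.52% lower and 7.63% higher). Those that rose included P4HA2 (1.11 ± 0.15, adjusted p = 6.19e-09) and SIL1 (0.71 ± 0.18, adjusted p = 0.00282). Of 28 genes of ER to Golgi transport 8 rose and 0 fell, for example the coat genes COPE (0.50 ± 0.07, adjusted p = 1.57e-07) and COPB2 (0.64 ± 0.10, adjusted p = 1.30e-06). Sensors and factors rose for 6 of 15 and fell for 1, with DDIT3 at 1.96 ± 0.19 (adjusted p = 7.91e-14), and integrated stress response genes rose for 16 of 24. Among these was PHGDH, the first enzyme of serine synthesis (1.71 ± 0.13, adjusted p = 5.02e-18). The cytosolic heat shock genes with the smallest adjusted p were lower, hsc70 (-1.04 ± 0.16), HSPA4L (-0.84 ± 0.14) and hspb6 (-1.55 ± 0.31). Those of the translocon and glycosylation list were higher, TRAM1 (0.50 ± 0.09), srprb (0.45 ± 0.11) and MAGT1 (0.45 ± 0.12). Genes picked by their adjusted p do not show the direction of either list as a whole.

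**Figure D3:**
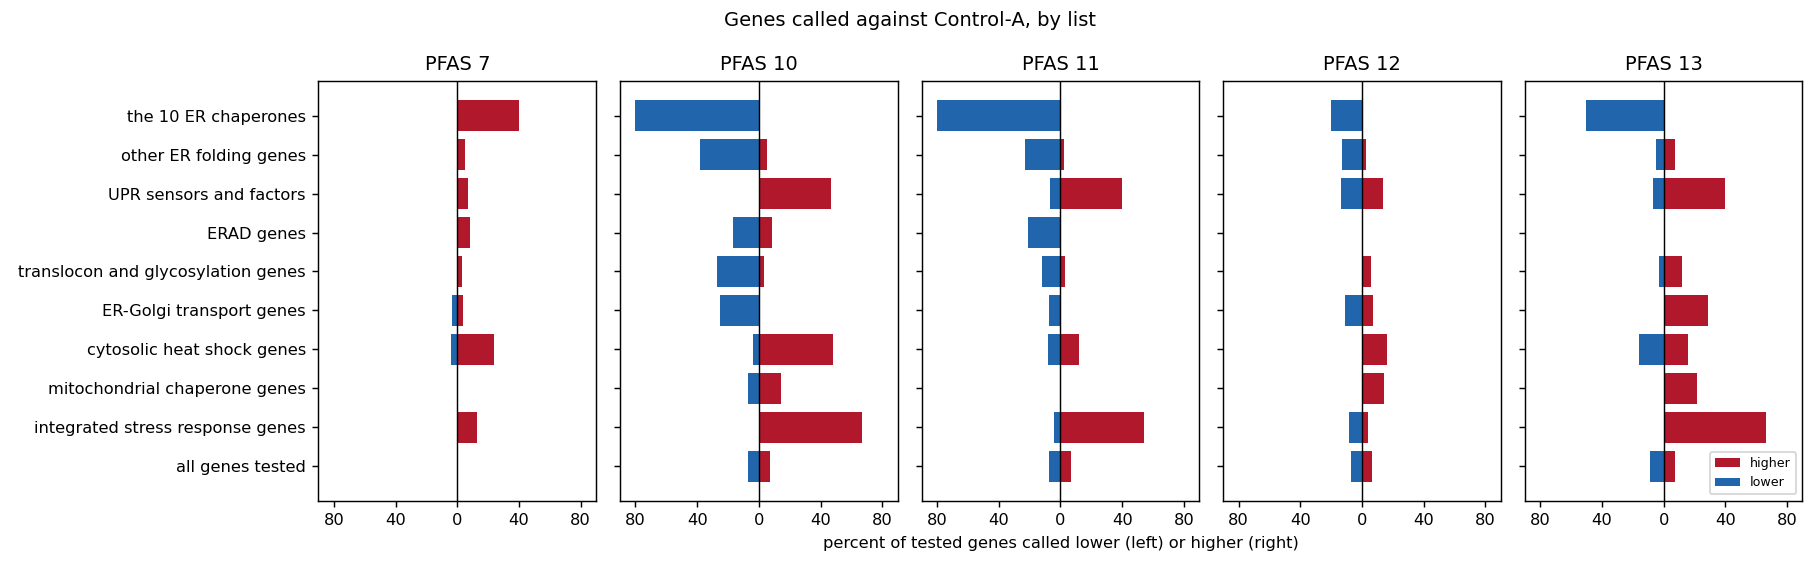
Percentage of tested genes called lower and higher in each list of ER and stress genes and among all genes, for PFAS 7, 10, 11, 12 and 13. The members were called higher for 4 of 10 with PFAS 7 and lower for 8 of 10 with PFAS 10 and 11, while integrated stress response genes were called higher for 16, 13 and 16 of 24 with PFAS 10, 11 and 13.

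PFAS 12 lowered 2 of 10 members, hsp90b1 and calr3b, where 7.47% of all genes were called lower, and neither call was firm. hsp90b1 had 154, 143, 152 and 172 CPM in PFAS 12 libraries, against 169, 192 and 196 CPM in Control-A (-0.27 ± 0.10, adjusted p = 0.0489), and calr3b had 96.6, 107, 95.4 and 90.8 CPM, against 104, 119 and 124 CPM in Control-A (-0.26 ± 0.08, adjusted p = 0.0221). Both overlapped with the controls. The 2 members that lay below every control were hyou1 (-0.30 ± 0.12, adjusted p = 0.074) and PDIA4 (-0.36 ± 0.14, adjusted p = 0.0735), and 5.79% of all genes lay below.

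With collection day as a block, hsp90b1 no longer passed with PFAS 12 (-0.25, adjusted p = 0.0778) while hyou1 did (-0.35, adjusted p = 0.029). The count was 0 without Control-A replicate 4, PFAS 12 replicate 1 or PFAS 12 replicate 3, and 1 without Control-A replicates 3, 5 or 6 or PFAS 12 replicates 2 or 4. Of 39 other ER folding genes 5 fell and 1 rose, with UGGT2 at -0.58 ± 0.14 (adjusted p = 0.00142). ERAD genes, those of ER-associated degradation, had 0 of 24 called by edgeR. Translocon and glycosylation genes rose for 2 of 33, and genes of ER to Golgi transport rose for 2 and fell for 3 of 28. These shares were near those of all genes with PFAS 12, 6.77% higher and 7.47% lower. The integrated stress response list had 1 gene called higher and 2 lower of 24, and DDIT3 stood at 8.05 to 10.5 CPM in PFAS 12 libraries, against 5.86 to 14.3 CPM in Control-A. Sensors and factors of the unfolded protein response were called in both directions with PFAS 12. XBP1 was higher (0.25 ± 0.06, adjusted p = 0.00326). creb3l3l (-0.45 ± 0.11, adjusted p = 0.00178) and creb3l3a (-0.72 ± 0.21, adjusted p = 0.0125) were lower.

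Markers of other cell types moved with these 4 substances. With PFAS 10, 11, 12 and 13, the shares of all genes called higher were 7.26%, 6.58%, 6.77% and 7.63%. Those called lower were 6.83%, 7.52%, 7.47% and 8.52%. Of 8 hatching gland markers, a gland whose cells are filled with secretory protein, 4, 4, 3 and 4 rose with PFAS 10, 11, 12 and 13, and none fell. Their summed level was 1123 to 1623, 1523 to 1951, 1318 to 1622 and 1419 to 2028 CPM in those 4 groups, against 874 to 1101 CPM in Control-A. These sums include XBP1, which averaged 440 CPM with PFAS 12, where it was called higher, and 369 CPM in Control-A. With PFAS 10, as given above, every library held more XBP1 than every Control-A library, so XBP1 adds to that difference between the sums. The part of XBP1 in the sums was not tested. Bone and dermal fibroblast markers fell for 4, 4, 0 and 6 of 10 with PFAS 10, 11, 12 and 13, with sums of 2782 to 3086, 2653 to 2866, 3278 to 3542 and 2526 to 2989 CPM, against 3203 to 3358 CPM in Control-A.

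Lens and retina markers fell for 3, 7, 0 and 8 of 13 with the same 4 substances, and neuron markers for 3, 3, 2 and 3 of 4. Only 4 of the 11 neuron marker names listed were found among the counted genes. The summed lens and retina level was 1615 to 1929 CPM with PFAS 10, 1310 to 1867 CPM with PFAS 11, 1814 to 2358 CPM with PFAS 12 and 1040 to 1252 CPM with PFAS 13, against 1969 to 2402 CPM in Control-A. Summed neuron markers reached 1838 to 1987, 1604 to 1817, 1937 to 2030 and 1714 to 1873 CPM with PFAS 10 to 13, against 2211 to 2552 CPM in Control-A. The part of these markers in the members' values was not tested.

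Under the other Round 1 substances, PFAS 1, 3, 5, 6, 8 and 9, edgeR called 0 of 10 members each, and DESeq2 likewise called 0. Members with an unadjusted p under 0.05 numbered 0, 0, 2, 2, 4 and 2 by edgeR. Of all genes, 4.15%, 3.96%, 3.85%, 4.73%, 15% and 18.6% had such a p. Of all genes, PFAS 1 had 0% called in either direction, PFAS 3 had 0.041%, PFAS 5 had 0.0547%, PFAS 6 had 0.105%, PFAS 8 had 3.84% and PFAS 9 had 6.9%. With PFAS 8 and PFAS 9, 0 of 10 members called was thus near the share of all genes.

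The members nearest to a call were canx with PFAS 8 (-0.18 ± 0.07, adjusted p = 0.148) and hsp90b1 with PFAS 9 (-0.25 ± 0.10, adjusted p = 0.109). canx had 134, 121, 138 and 114 CPM in PFAS 8 libraries, against 136, 144 and 154 CPM in Control-A. hsp90b1 had 154, 130, 185 and 158 CPM in PFAS 9 libraries, against 169, 192 and 196 CPM in Control-A, and it passed without PFAS 9 replicate 3 (-0.34, adjusted p = 0.0355). Both groups overlapped with their controls.

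In Round 2, edgeR called 0 of 10 members for each of PFAS 2, PFAS 4, PFAS 14 and PFAS 15, with 1, 0, 1 and 0 members at an unadjusted p under 0.05, and DESeq2 called 0. Of all genes, 0% were called with PFAS 2, PFAS 14 or PFAS 15 and 0.00456% with PFAS 4. Fold changes of single members ranged from -0.31 (PDIA4 with PFAS 14) to 0.28 (pdia6 with PFAS 2) in these 4 comparisons.

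The summed level of the 10 members condensed these results to 1 value per library. It was 1166 to 1575 CPM in PFAS 7, 698 to 999.6 CPM in PFAS 10, 729 to 776 CPM in PFAS 11, 948 to 1011 CPM in PFAS 12 and 874 to 909.6 CPM in PFAS 13, against 1032 to 1067 CPM in Control-A. The medians of PFAS 1, 3, 5, 6, 8 and 9, at 1006, 992, 933, 952, 979.5 and 954 CPM, also lay below the lowest Control-A library, with no member called in them. All fitted libraries of PFAS 5 (927 to 988 CPM, n = 3) and PFAS 6 (907 to 985 CPM) lay below every Control-A library, at sums like those of PFAS 12. PFAS 5 replicate 1, which was left out of the fit, had a sum of 1086 CPM, above every Control-A library.

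**Figure D4:**
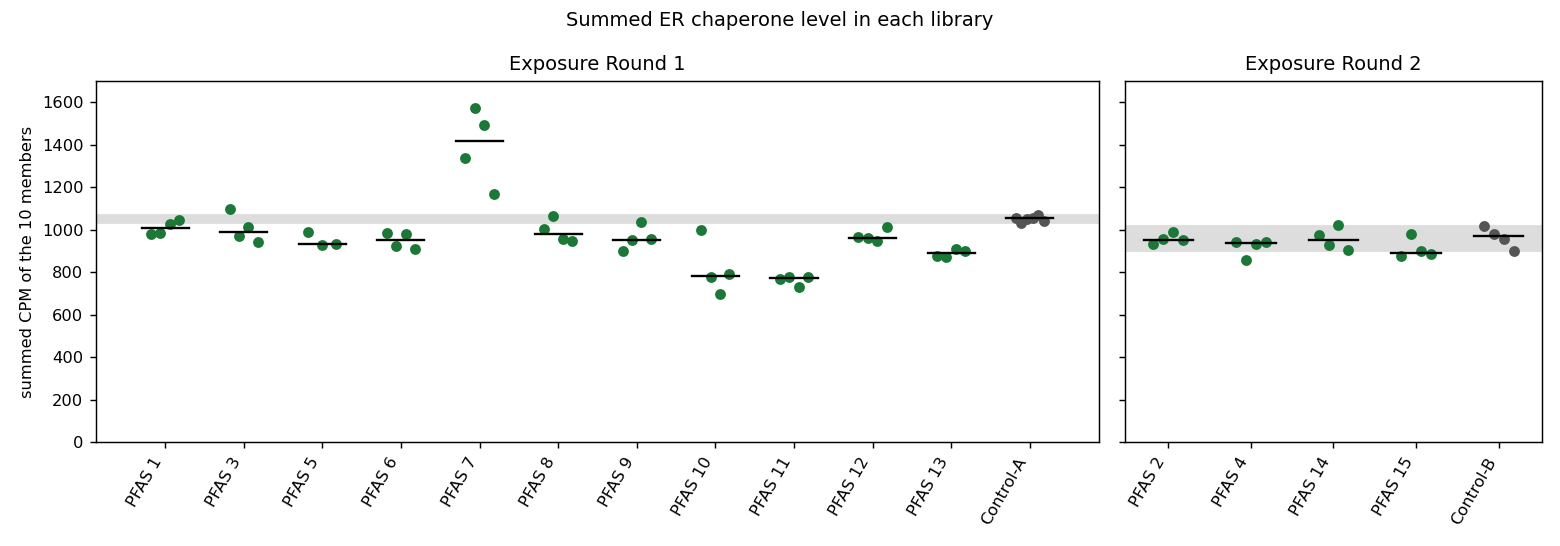
Summed CPM of the 10 members in every fitted library of Round 1 and Round 2, without PFAS 5 replicate 1. Points are libraries, lines are medians, and the grey band spans the controls of the round. PFAS 7 lies above the band, at 1166 to 1575 CPM, and PFAS 5, 6, 10, 11, 12 and 13 lie wholly below it; the Round 2 groups overlap with Control-B, at 899.7 to 1016 CPM.

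Compounds were compared directly only at matched concentrations, which gave 7 pairs. PFAS 14 and PFAS 15 differ by a single fluorinated carbon between their acrylate ends. Between them, edgeR and DESeq2 each called 0 of 10 members, as 0% of all genes, and 1 member had an unadjusted p under 0.05. That member was pdia3, with 196, 215, 203 and 186 CPM in PFAS 14 libraries, against 194, 189, 176 and 155 CPM in PFAS 15 libraries. Its difference was 0.16 (95% interval 0.02 to 0.31, adjusted p = 0.321 over the 7 pairs), and for the other members the differences lay between -0.14 and 0.10.

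The other 6 pairs were those among PFAS 1, 5, 6 and 12 at 100 µM, which differ in head group and chain. edgeR called 0 members between PFAS 1 and PFAS 5, between PFAS 1 and PFAS 6, and between PFAS 5 and PFAS 6, as 0% of all genes in each pair. Between PFAS 5 and PFAS 12, and between PFAS 6 and PFAS 12, it called 0 members as well, where 10.1% and 9.38% of all genes were called. Members with an unadjusted p under 0.05 numbered 1, 0, 0, 2 and 2 in these 5 pairs, and DESeq2 called 0 in each.

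PDIA4 was called higher in PFAS 1 than in PFAS 12, where 5.99% of all genes were called higher. The difference of PDIA4 was 0.43 (95% interval 0.13 to 0.73), with an adjusted p of 0.0476 within the pair and 0.114 over the 7 pairs, so that it did not hold once all pairs were counted. Of the other intervals in these 6 pairs, 8 lay wholly on one side of 0, and none of those members passed over the 7 pairs (adjusted p = 0.309 to 0.419). They included canx, the lectin chaperone, which was lower in PFAS 1 than in PFAS 12 by a difference of -0.16 (95% interval -0.32 to -0.01), in PFAS 5 than in PFAS 12 by -0.19 (-0.35 to -0.02), and in PFAS 6 than in PFAS 12 by -0.17 (-0.32 to -0.01).

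Across the 69 libraries, the members varied together to different degrees. The log2 CPM of each member, relative to its round's controls, correlated with the mean of the other 9 at r = 0.84 for hsp90b1, 0.79 for hyou1, 0.74 for calr3b, 0.70 for pdia3, 0.70 for dnajb11, 0.69 for PDIA4, 0.65 for pdia6, 0.64 for HSPA5, 0.49 for canx and 0.47 for sdf2l1. Within groups, where the exposures are taken out, these values were 0.10 to 0.50. The points share libraries, controls and scaling, so the coefficients are a description only. The closest pair was HSPA5 and hyou1 (r = 0.83, and 0.58 within groups).

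Of 7826 other genes compared, those whose pattern was most like the mean of the members over the 69 libraries were calr3a (r = 0.77), MANF (0.75), SEL1L (0.70), s100a10a (0.66), si:ch211-10a23.2 (0.65), tubb4bl (0.65), pdia8 (0.65), myh14 (0.65), tubb5 (0.64) and dnajc3b (0.64). Of these, calr3a, MANF, pdia8 and dnajc3b were on the list of other ER folding genes, SEL1L on that of degradation genes and tubb5 on that of neuron markers. Within groups, r was 0.43 for calr3a, 0.40 for MANF, 0.34 for pdia8, 0.31 for myh14, 0.22 for si:ch211-10a23.2 and 0.19 for SEL1L, and near 0 or below for dnajc3b (0.07), s100a10a (0.04), tubb4bl (0.04) and tubb5 (-0.12). calr3a is a near relative of calr3b, and the handling of reads shared between such copies was not examined.

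The NB2 time course was measured in a separate table of deposited log2 values, in which 9 of 10 members were analysed. HSPA5 was not analysed here. Each time had 5 NB2 and 5 vehicle columns, except 48 hpf with 4 and 4, and differences are on that log2 scale, tested with limma over 24853 genes. At 48 hpf limma called 0 of 9 members, as 0% of all genes, and 0 had an unadjusted p under 0.05. The difference was 0.14 ± 0.10 for hsp90b1 and -0.15 ± 0.11 for hyou1.

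At 72 hpf limma again called 0 of 9 members, where 0.728% of all genes were called, and 2 had an unadjusted p under 0.05. calr3b was 0.21 ± 0.07 higher with NB2 (adjusted p = 0.154) and hsp90b1 was 0.24 lower (-0.24 ± 0.09, adjusted p = 0.205). hsp90b1 stood at 11.00, 11.31, 11.69, 11.32 and 11.47 in the NB2 columns, against 11.54, 11.75, 11.44, 11.65 and 11.59 in vehicle. Without NB2 column C, the highest of the 5, the difference of hsp90b1 was -0.32 and passed (adjusted p = 0.0403).

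At 96 hpf 1 of 9 members rose with NB2, hsp90b1, where 8.22% of all genes were called higher, so the members' share was close to the background. An unadjusted p under 0.05 was found for 6 of 9 members and for 29% of all genes. Of those members only canx was lower with NB2 (-0.13 ± 0.06, adjusted p = 0.142). hsp90b1 had 11.79, 11.25, 11.57, 11.40 and 11.48 in NB2 columns, against 11.07, 11.03, 11.19, 10.98 and 11.08 in vehicle, without overlap (0.43 ± 0.09, adjusted p = 4.01e-04). hyou1 was next, at 8.69 to 9.36 with NB2 against 8.72 to 8.93 in vehicle (0.26 ± 0.10, adjusted p = 0.0506). It passed without NB2 column B (0.35, adjusted p = 0.00429), without NB2 column C (adjusted p = 0.0484) or without vehicle column D (adjusted p = 0.0414), and calr3b and dnajb11 passed without NB2 column C (adjusted p = 0.0313 and 0.0125).

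The effect of NB2 on hsp90b1 differed between times. From 72 to 96 hpf it changed by 0.67 ± 0.13 (interaction term, adjusted p = 3.12e-04), where 5.69% of all genes had a higher effect, and hsp90b1 was the only member with such a difference. For the effect at 72 minus 48 hpf, limma called 0 of 9 members, with 0.197% of all genes called and 2 members at an unadjusted p under 0.05. For 96 minus 48 hpf it called 0 of 9, with 7.25% of all genes called and 3 members at an unadjusted p under 0.05. The largest of these was that of hyou1, 0.42 ± 0.14 (adjusted p = 0.0717), which passed without NB2 column D at 48 hpf (adjusted p = 0.0467), NB2 column B at 96 hpf (adjusted p = 0.0105) or vehicle column E at 48 hpf (adjusted p = 0.0401).

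In vehicle animals hsp90b1 averaged 11.59 ± 0.11 at 72 hpf and 11.07 ± 0.08 at 96 hpf (SD, n = 5 each), while with NB2 it averaged 11.36 ± 0.25 at 72 hpf and 11.50 ± 0.20 at 96 hpf. The NB2 means of the 2 times thus differed by less than their SDs, while the vehicle columns of the 2 times did not overlap.

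**Figure D5:**
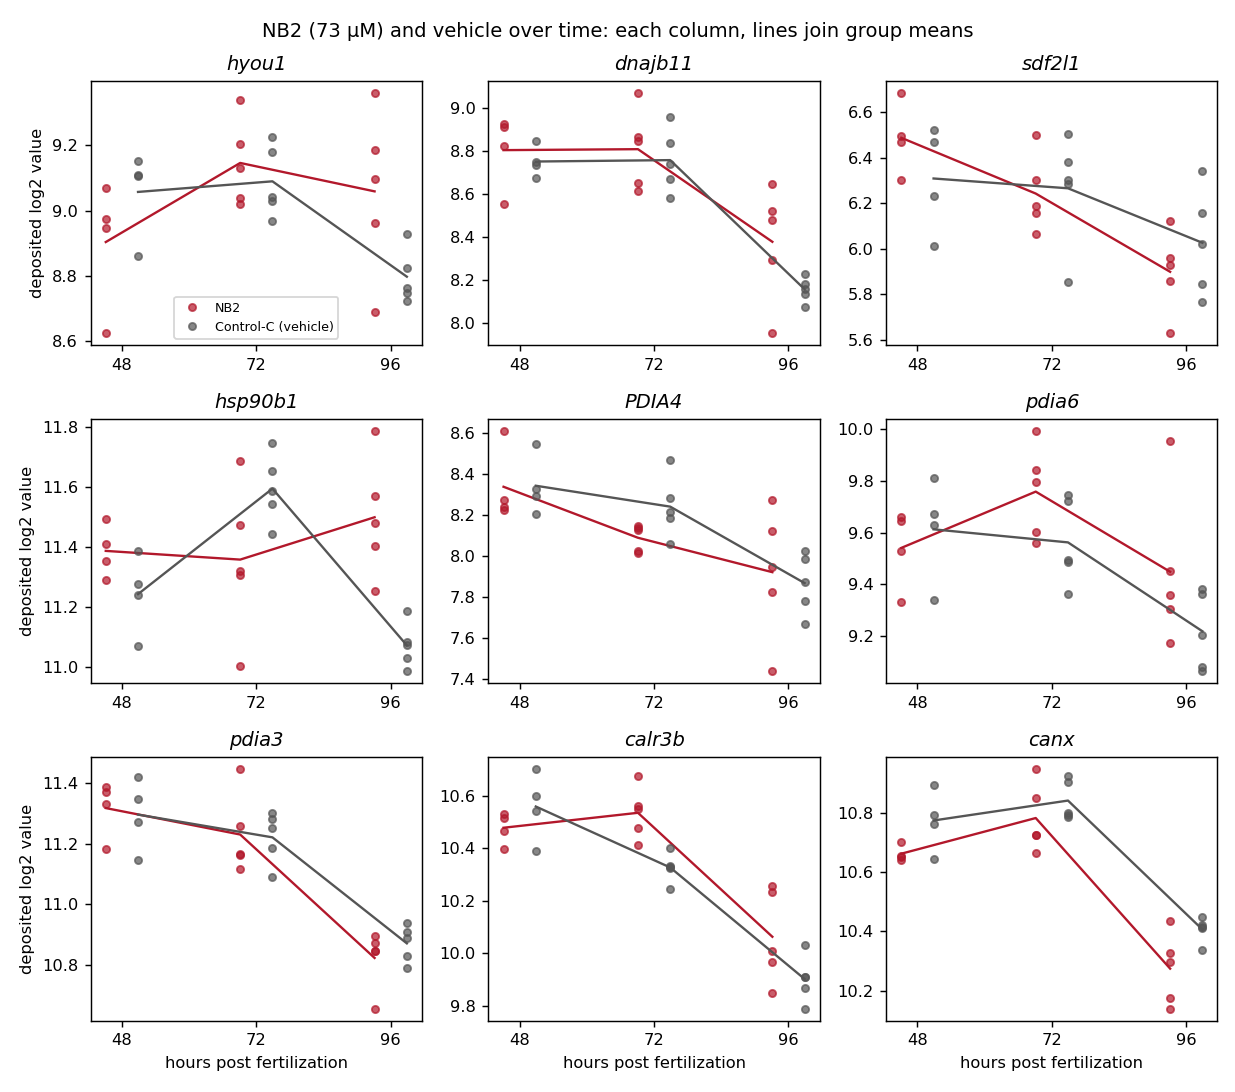
Deposited log2 value of 9 members at 48, 72 and 96 hpf in NB2 (left of each pair) and Control-C columns; points are columns and lines join the means. Vehicle levels of most members are lowest at 96 hpf, and hsp90b1 separates at 96 hpf, at 11.25 to 11.79 with NB2 and 10.98 to 11.19 in vehicle.

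Without chemical, the members declined late in the time course. At 96 against 72 hpf, 8 of 9 fell in vehicle animals, where 7.83% of all genes were called lower. The falls were -0.60 ± 0.10 for dnajb11, -0.52 ± 0.09 for hsp90b1, -0.43 ± 0.06 for canx, -0.42 ± 0.07 for calr3b, -0.37 ± 0.11 for PDIA4, -0.35 ± 0.06 for pdia3, -0.34 ± 0.11 for pdia6 and -0.29 ± 0.10 for hyou1, and sdf2l1 gave -0.24 ± 0.15 (adjusted p = 0.316). With a vehicle column left out, 6 to 8 were called: pdia6 did not pass without column C or E of 72 hpf or A or D of 96 hpf, hyou1 without B or D of 72 hpf or B, C or E of 96 hpf, and PDIA4 without E of 72 hpf or A of 96 hpf (adjusted p = 0.0552 to 0.0846). Without limma's mean trend 6 were called, with pdia6 (adjusted p = 0.0665) and hyou1 (adjusted p = 0.0623) lost. At 72 against 48 hpf 25.6% of all genes were called, 13% higher and 12.6% lower. Of the 9 members 1 rose and 1 fell, close to those shares. They were hsp90b1 (0.35 ± 0.09, adjusted p = 0.00394) and calr3b (-0.23 ± 0.08, adjusted p = 0.0182). The call of calr3b did not hold without vehicle column A or D of 48 hpf (adjusted p = 0.103 and 0.0541).

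Other lists moved over the same vehicle interval, in which 9.77% of all genes were called higher and 7.83% lower. Of 43 other ER folding genes, 21 fell and 1 rose at 96 against 72 hpf, the riser being pdia2, an isomerase of the pancreas in mammals, at 3.04 ± 0.19 (adjusted p = 2.16e-15). All 14 exocrine pancreas markers tested rose, with a median of 3.52, and 8 of 10 blood markers fell, with a median of -1.62. The part of these cell types in the members' values was not tested.

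With NB2 at 96 hpf, the median difference was 0.16 for the 9 members, 0.19 for the sensors and factors of the unfolded protein response and 0.51 for the integrated stress response genes. The median was -0.14 for the other ER folding genes, 0.22 for the ERAD genes and -0.02 for all genes. Sensors and factors of the unfolded protein response rose for 5 of 17, among them ppp1r15a (1.35 ± 0.11, adjusted p = 7.24e-12), ddit3 (1.28 ± 0.11, adjusted p = 2.14e-11) and atf4a (0.67 ± 0.09, adjusted p = 1.75e-07). The genes named here are of the eIF2α and ATF4 branch shared with other stresses. Integrated stress response genes rose for 15 of 28, cytosolic heat shock genes for 15 of 33 and mitochondrial chaperone genes for 10 of 16. Of all genes, 8.22% were called higher and 10.2% lower. Other ER folding genes rose for 3 of 43, a share near that of all genes, and fell for 10. Among them were the BiP co-chaperone dnajb9b at 1.51 ± 0.20 (adjusted p = 4.38e-07) and the collagen chaperone serpinh1b at -0.60 ± 0.11 (adjusted p = 6.88e-05).

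Markers of several cell types moved in that comparison too, in which 8.22% of all genes were called higher and 10.2% lower. Of 15 notochord and cartilage markers 11 were lower at 96 hpf with NB2, and of 14 bone and dermal fibroblast markers 8. Lower calls were also made for 6 of 15 muscle, 4 of 13 lens and retina and 3 of 12 mucous and epidermal markers, with none higher. Neuron markers were lower for 5 and higher for 1 of 11, and liver markers lower for 4 and higher for 3 of 14. Of 6 hatching gland markers 2 were higher and 1 lower, and of 10 blood markers 0 were called. Exocrine pancreas markers were called higher for 1 and lower for 2 of 14. The part of all these markers in the members' values was not tested. At the same substance's lower nominal concentration in the first experiment, PFAS 2 at 30 µM and 48 hpf, hsp90b1 gave -0.13 ± 0.10 and hyou1 0.03 ± 0.13, beside 0.14 and -0.15 for NB2 at 73 µM and 48 hpf. The experiments used different stocks, each at a concentration the study chose for a high incidence of malformations. Their values are also on different scales, so they are not a comparison of doses.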

How the data were processed

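Libraries were made by the authors with a 3′ forward mRNA kit, each split over 2 flow cells, and per the labels and methods reads were aligned with STAR to GRCz11 and counted with HTSeq using strand; tool versions are not given in the sources used here. The deposited counts per gene (raw, with genes of low counts removed by the authors) were added over the flow cells. Their 3′ tags give precision set by the count, and no interval covers more than the spread between pools. The NB2 values are deposited log2 values that the authors normalized and variance-stabilized with DESeq2, so limma was used there in place of a count test. It was run on genes with at least 4 columns above the table's lowest value (24853 of 26992), and 2 samples were not analysed here. Columns of the authors' fold changes and p-values were not used.

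Counts were tested with edgeR 4.0.16 (R 4.3.3) after TMM scaling and filterByExpr with a minimum count of 10 and total of 15, 1 coefficient per group, with Benjamini-Hochberg adjustment and a limit of 0.05. limma 3.58.1 was used with a mean trend. Both procedures were tested on simulated data. CPM values use the TMM library sizes. Alternatives were DESeq2 1.42.0, other scaling factors, no filter, each flow cell alone, PFAS 5 replicate 1 kept in, replicate number or collection day as a block, only the libraries compared, and each library left out. Scaling by upper quartile or library totals, adjustment over the 7 pairs, and the alternatives of the pairs, the NB2 interactions and the vehicle contrasts were chosen after seeing the data.

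Collection days came from the study's sampling sheet. Deviations from group means correlated at 0.0521 between libraries of the same day and at -0.0119 between days (7835 genes), and for replicate numbers at 0.0606 against -0.0181 in Round 1 and 0.0664 against -0.0215 in Round 2, so neither was taken as pairing. NB2 columns carry letters that pair no samples.

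The members and the gene lists were chosen with earlier results of these data known. Named genes were all members; up to 3 called genes with the smallest adjusted p per list and comparison; and the 10 genes most like the members' mean. XBP1 with PFAS 10 and DDIT3 with PFAS 12 fall outside this rule and were chosen after their values were seen. Symbols were found for 25504 of 27904 genes and 23971 of 26992 genes of the NB2 table. Coordinates, promoters and proteins were not used here.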

Additional observations from a re-analysis of the deposited data

Results flagged for a closer look

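Single libraries that stood far from the rest of their group were looked for among 236 sets of a gene and a group. There were 11, where about 1 in 20 or 11.8 arises by chance.

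Among the controls, dnajb11 was lowest in Control-A replicate 4 (5.16 log2 CPM, others 5.37 to 5.47), pdia3 in Control-A replicate 3 (7.43, others 7.60 to 7.68) and sdf2l1 in Control-A replicate 6 (1.85, others 2.33 to 2.57). In exposed groups, hsp90b1 was lowest in PFAS 10 replicate 3 (6.53, others 6.93 to 7.01), pdia6 in PFAS 15 replicate 1 (5.78, others 5.97 to 5.99) and pdia3 in PFAS 2 replicate 3 (7.38, others 7.53 to 7.55), while pdia3 was highest in PFAS 10 replicate 2 (7.38, others 7.25 to 7.27).

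In the NB2 table, PDIA4 was highest in NB2 column B at 48 hpf (8.61, others 8.23 to 8.27), the members' mean was lowest in NB2 column E at 48 hpf (9.48, others 9.56 to 9.57), pdia3 was lowest in NB2 column E at 96 hpf (10.66, others 10.85 to 10.90), and hyou1 was lowest in vehicle column E at 48 hpf (8.86, others 9.11 to 9.15).

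The effect of NB2 on hsp90b1 differed between 96 and 72 hpf by 0.67 on the log2 scale.

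PFAS 5 replicate 1, left out above, stood above every Control-A library for pdia6 (80.02 CPM, Control-A 56.8 to 73.5), hyou1 (48.5, Control-A 34.7 to 41.4), canx (228, Control-A 136 to 154), pdia3 (286, Control-A 172 to 204) and calr3b (133, Control-A 104 to 124). It lay below every control for hsp90b1 (56.8 CPM), PDIA4 (9.64 CPM), sdf2l1 (0.206 CPM) and HSPA5 (204 CPM), so its members did not move one way.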

How the results depend on the processing

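Of 4948 values of single members under the alternatives, 4873 kept their side of the threshold, 52 no longer passed and 23 newly passed. No called value changed sign, while members that did not pass changed sign in some fits. The 4 calls with PFAS 7 were kept throughout. With PFAS 10 the count lower was 9 with DESeq2, upper-quartile factors, library totals, and replicate number or collection day as a block, and 7 to 9 with a library left out, against 8; with PFAS 11 (8) it was 7 on run66 alone, 9 with library totals (canx gained) and 6 to 8 with a library left out. With PFAS 12 (2) it was 3 on run64 alone and with only the libraries of the 2 groups. It was 1 with relative-log-expression factors, PFAS 5 replicate 1 kept in, the flow cell labelled run66 alone and the replicate block by number. With a library left out it was 0 to 2. With PFAS 13 (5) it was 3 with PFAS 5 replicate 1 kept in and 2 with run64 alone. It was 4 with only the libraries of the 2 groups, and 3 to 5 with a library left out. With PFAS 8 it was 1 with library totals only (canx), and with PFAS 9 0 to 1 with a library left out. The PDIA4 call of PFAS 1 against PFAS 12 went to 0 with relative-log-expression factors, no filter, PFAS 5 replicate 1 kept in, or either flow cell alone. In the NB2 table, vehicle 72 against 48 hpf gave 1 without the mean trend and 1 to 2 with a column left out, and vehicle 96 against 72 hpf (8) gave 6 without the mean trend and 6 to 8 with a column left out. NB2 at 72 hpf gave 0 to 1, NB2 at 96 hpf 1 to 4, and 96 minus 48 hpf 0 to 1, with a column left out. The cause was not tested in any of these. The block changed no other count by over 1.5 times. The median of all genes reached -0.117 on the log2 scale with library totals (PFAS 10) and -0.0488 with upper-quartile factors. Depth limits sdf2l1 most, at 2.17 to 6.37 CPM in PFAS 7, 10, 11, 12 and 13. The left-out fits kept the dispersion trend of all libraries.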
